A study of Mus musculus with 20 samples.

Results

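Lyz1, Ang4, Mmp7, Itln1 and Habp2 are grouped here as Paneth cell genes whose products are not defensins. Paneth cells are the granule-filled secretory cells at the base of small intestinal crypts. Of the 5 genes, Habp2 followed the listed alpha-defensins least, and bulk RNA does not show which cells made it. The genes were taken by gene symbol, and each symbol stood on 1 of the 23020 rows of the deposited table. All 5 were among the 9521 genes with a mean of at least log2 of 10 over the libraries, the minimum for testing. Crypt RNA of 20 C57BL/6 mice was sequenced from the 3' ends of polyadenylated transcripts. Co-housed mice had shared cages across genotypes for 4 weeks (5 Xiap-/-, 5 WT), and mice housed apart had lived by genotype (4 Xiap-/-, 6 WT). Xiap-/- mice lack Xiap, which encodes an inhibitor of caspases that also takes part in signalling downstream of NOD2. The labels name neither cage, age nor the deleted part of Xiap, and no treatment. Nothing in the labels says whether mice of a group came from 1 cage, and the tests treat each mouse as 1 independent sample.

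Paneth cells release their granules into the crypt lumen, where the contents kill or bind microbes. Most of the granule mass is alpha-defensins, which in mice are made as inactive precursors and cut by the protease Mmp7. Lyz1 encodes the Paneth cell lysozyme, which cleaves the peptidoglycan of bacterial walls. Ang4 encodes a secreted ribonuclease of the angiogenin family with activity against gut bacteria. Itln1 encodes intelectin, a lectin that binds sugars of microbial surfaces. Habp2 encodes a hyaluronan-binding serine protease, known from plasma for acting on coagulation factor VII and urokinase.

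Differences were tested with limma, a linear model that shares variance estimates across genes, with p-values adjusted over the 9521 genes by Benjamini-Hochberg and a threshold of 0.05. No member passed in any of 7 comparisons, and Ang4 came nearest. In mice housed apart, Ang4 averaged 9.45 ± 0.31 in Xiap-/- and 8.92 ± 0.24 in WT crypts (normalized level on the deposited log2 scale, SD, n = 4 and 6), a 1.44-fold difference with a limma adjusted p of 0.0864. How the log2 values were derived is not given in the sources used here. Some transformations compress differences, most of all in weakly detected genes, and whether this one did was not tested, so each fold holds on the deposited scale. Lyz1 had a smaller difference in the same direction, and Mmp7, Itln1 and Habp2 had differences near 0. Over single mice, however, the members varied together. Lyz1 and Ang4 followed each other closely, Itln1 followed the alpha-defensins Defa24 and Defa30, and Mmp7 followed Mptx2.

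The labelled tissue was checked against marker genes. Of 10 further Paneth cell markers 9 stood above the minimum mean, with Defa24 at a mean of 14.17, and of 6 absorptive markers all did, with Fabp2 at 13.75. The labels' extraction text names liver, but Alb, Serpina1c, Fgb and Hp were not above the minimum. Only 4 of the 6 hepatocyte markers had a row, so some of these, Fgb among them, were absent rather than measured as low. The hepatocyte markers above the minimum, Apob and Ttr, are also made by gut epithelium. Adipose and mesothelial tissue can also express Itln1, and Msln, Upk3b, Wt1, Retn and Adipoq were not above the minimum in these crypts. Of these 6 markers, Itln1 included, 5 had a row. The summed linear level of the Paneth markers ran from 29420 to 48550 in co-housed Xiap-/-, 28660 to 46070 in co-housed WT, 37250 to 47480 in Xiap-/- housed apart and 31340 to 42480 in WT housed apart. Depth is unknown, since the table holds no counts. A proxy, the share of 1854 rare genes standing above their own plateau, averaged 17.1% ± 10.5 in Xiap-/- and 7.71% ± 3.69 in WT mice housed apart (SD, n = 4 and 6), and 8.77% ± 2.77 in Xiap-/- and 8.74% ± 1.47 in WT co-housed mice (n = 5 each). The Xiap transcript averaged 6.38 in Xiap-/- and 6.81 in WT mice housed apart (limma adjusted p = 0.0599), and 6.62 and 6.67 in co-housed Xiap-/- and WT mice. A 3' tag can lie outside a deletion, so this does not check the genotype of a mouse.

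The start regions of Lyz1, Ang4, Itln1 and Mmp7, which are not neighbours in the genome, are shown. These members varied together over mice to different degrees. Habp2 also followed Itln1 and Mmp7, but its region is not shown. Each line gives 130 bases before and 20 bases from the first transcribed base, 5′ to 3′ on the gene's strand, from RefSeq on GRCm38.p6, with capitals for the motifs found. Of the 5 members, 5 matched an entry of that table. The positions are chr10:117292849-117292998 (minus strand) for Lyz1, chr14:51773571-51773720 (minus) for Ang4, chr1:171535275-171535424 (minus) for Itln1 and chr9:7691960-7692109 (plus) for Mmp7.
Lyz1: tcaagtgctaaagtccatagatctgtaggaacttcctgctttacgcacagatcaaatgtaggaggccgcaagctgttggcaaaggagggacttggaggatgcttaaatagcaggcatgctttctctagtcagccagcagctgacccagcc
Ang4: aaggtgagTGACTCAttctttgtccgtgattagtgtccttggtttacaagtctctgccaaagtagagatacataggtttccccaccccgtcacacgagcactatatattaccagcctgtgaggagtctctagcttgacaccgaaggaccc
Itln1: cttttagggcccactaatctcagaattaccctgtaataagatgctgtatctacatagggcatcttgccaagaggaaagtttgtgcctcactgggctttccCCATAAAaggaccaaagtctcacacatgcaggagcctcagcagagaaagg
Mmp7: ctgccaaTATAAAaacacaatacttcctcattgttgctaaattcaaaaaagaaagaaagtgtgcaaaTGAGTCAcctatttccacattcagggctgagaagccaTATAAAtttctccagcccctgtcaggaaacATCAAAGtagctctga

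Matches of 6 motifs were searched on both strands of the whole 300-base windows, and no matches overlapped in these genes. The AP-1 motif TGANTCA was present in Ang4 and Mmp7 and in 7.8% of the 32851 windows of all genes. The TCF motif ATCAAAG was present in Mmp7, within its first transcribed bases (positions 5 to 11, counted from 1 at the first transcribed base), and in 3.7% of all windows. The TATA box TATAAA was present in Mmp7 at 2 places and in 13.6% of all windows. The CDX motif TTTATNG was present in Itln1 and, outside the printed stretch, in Mmp7, against 10.9% of all windows. The GATA motif AGATAA was found in Mmp7, outside the printed stretch, against 11.2%, and the NF-kB consensus motif was in none of the members' windows and in 0.4% of all. No motif of the 6 was shared by Lyz1 and Ang4, and letter by letter their printed stretches were identical at 37 of 150 positions.

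Lyz1 lies on chromosome 10 (117287797 to 117292868, minus strand, GRCm38, 4 exons, GENCODE M21), 5476 bases from Lyz2, the lysozyme gene of macrophages. The equivalent 150 bases of Lyz2 were identical to those of Lyz1 at 140 positions, with an unbroken run of 70. The transcripts also shared an identical stretch of 118 bases, and one of 104 bases within the last 400 bases of each, while the sequenced reads had 75 bases. Reads from those stretches could have come from either gene, so the values of both carry that uncertainty. The Lyz2 row had means of 4.57 ± 0.15 in Xiap-/- and 4.27 ± 0.16 in WT mice housed apart (log2, SD, n = 4 and 6), a difference of 0.30 ± 0.11 (SE, limma adjusted p = 0.202).

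The lysozyme transcript Lyz1 lay between 11.54 and 12.39 on the log2 scale in all 20 mice. Xiap-/- mice housed apart had log2 levels of 12.36, 12.39, 12.06 and 12.19, against a lowest of 11.78, a median of 12.04 and a highest of 12.23 in the 6 WT mice housed apart. Co-housed Xiap-/- mice had 12.15, 12.24, 12.09, 11.69 and 12.13, and co-housed WT mice 12.10, 12.12, 12.03, 12.00 and 11.54. Within each housing the genotypes overlapped, and 1 low mouse stood apart in each co-housed group. The group means ran from Xiap-/- housed apart (12.25 ± 0.15) over co-housed Xiap-/- (12.06 ± 0.21) and WT housed apart (12.01 ± 0.18) to co-housed WT (11.96 ± 0.24), and no step between neighbours exceeded the larger SD of the pair. The genotype difference was 0.24 ± 0.13 in mice housed apart (SE, 95% interval -0.02 to 0.50, limma adjusted p = 0.358) and 0.10 ± 0.12 in co-housed mice (-0.15 to 0.36, adjusted p = 0.771). Without co-housed WT replicate 5, the lowest mouse, the difference in co-housed mice was -0.0012. On the linear scale the interval in mice housed apart ran from 0.988-fold to 1.41-fold.

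Ang4 lies on chromosome 14 (51763878 to 51773590, minus strand, 2 exons). It shares an identical stretch of 79 bases with the angiogenin gene Ang5, 1 of 50 bases with Ang2 and 1 of 41 bases with Ang6. The Ang5, Ang2 and Ang6 rows had means of -0.11, -0.15 and 0.26, below the minimum for testing. In Xiap-/- mice housed apart, Ang4 had log2 levels of 9.57, 9.82, 9.14 and 9.26, against a lowest of 8.72, a median of 8.82 and a highest of 9.29 in the 6 WT mice housed apart. The 2 highest Ang4 levels of all 20 mice were thus in Xiap-/- mice housed apart, while the other 2 mice of that group lay within the WT range. Co-housed Xiap-/- mice had 9.13, 9.28, 9.19, 8.73 and 9.12, and co-housed WT mice 9.13, 8.91, 9.02, 9.06 and 8.40. Here 3 Xiap-/- mice lay within the WT range and the other 2 above it. The group means ran from Xiap-/- housed apart (9.45 ± 0.31) over co-housed Xiap-/- (9.09 ± 0.21) and WT housed apart (8.92 ± 0.24) to co-housed WT (8.90 ± 0.29). Only the first of these steps exceeded the SD of either neighbour.

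**Figure D1:**
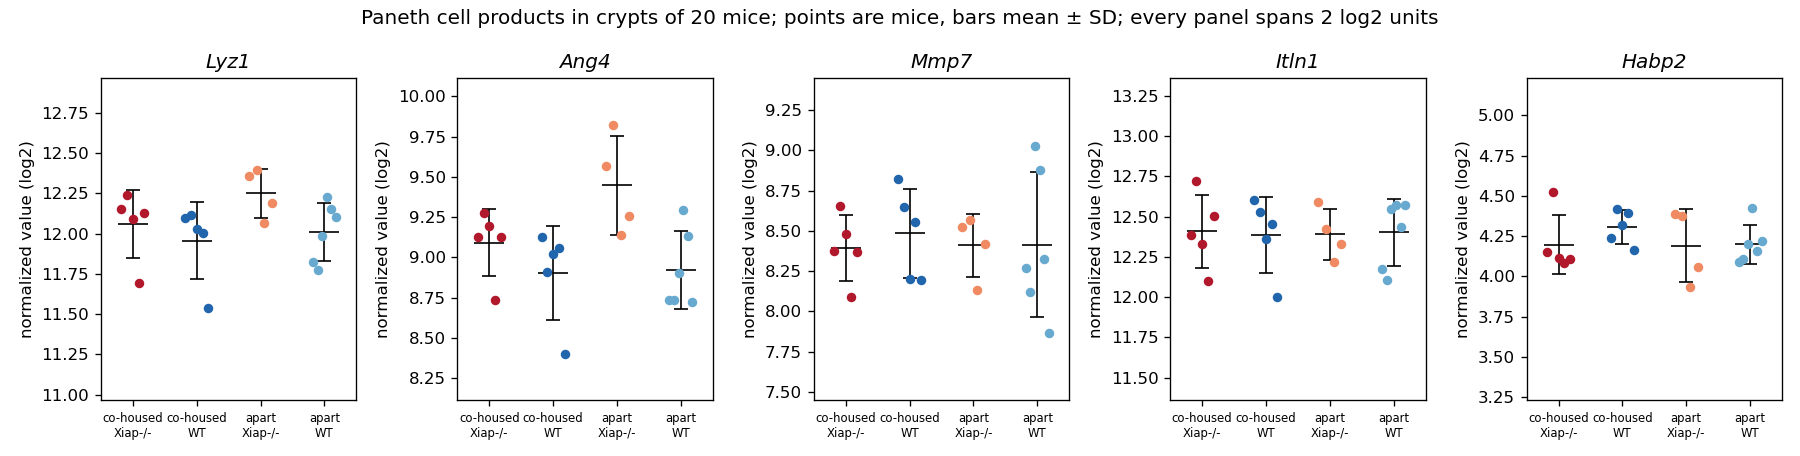
Log2 normalized level of the 5 genes in each of the 20 mice (points), by group, with the mean and SD of each group; every panel spans the same range of 2 log2 units. Ang4 is highest in Xiap-/- mice housed apart (9.45 ± 0.31), and the low mice of the co-housed groups stand out in the Lyz1 and Ang4 panels.

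The genotype difference of Ang4 in mice housed apart was 0.53 ± 0.15 (SE, 95% interval 0.23 to 0.82), or 1.44-fold (1.17 to 1.77), and it ranked 131st by p among the tested genes (limma adjusted p = 0.0864). In co-housed mice it was 0.19 ± 0.14 (-0.10 to 0.48, adjusted p = 0.618). Averaged over both housings it was 0.36 ± 0.10 (0.15 to 0.57, adjusted p = 0.0619). The depth proxy was also highest in the mouse with the most Ang4, Xiap-/- replicate 2 housed apart, at 32.1%. Without that mouse the difference housed apart was 0.40 (limma adjusted p = 0.253), and with the proxy as a covariate it was 0.32 (adjusted p = 0.859). In contrast, it passed without WT replicate 5 housed apart (0.57, adjusted p = 0.0246), with array weights (0.63, adjusted p = 0.0295) and with both low co-housed mice left out (0.53, adjusted p = 0.0475). Without that WT mouse 697 of the 9521 tested genes passed, and with array weights 385 did, against 43 in the main setting. The same WT mouse had the highest depth proxy of its group, 14.9%. Over all alternatives the adjusted p of Ang4 ran from 0.0246 to 0.859. Some marker sums of other cell types also differed between Xiap-/- and WT mice housed apart, while others had close means. The mean sums were 19380 and 19890 for goblet and 556.2 and 533.6 for stem cell markers. For absorptive markers they were 45200 and 43430, and for T cell markers 1395 and 1325. The sums given next were picked after their values were seen, and how often such sums separate the groups was not computed. The summed linear level of tuft cell markers (4 of 4 above the minimum mean) was 76.4 to 84.3 in Xiap-/- and 60.2 to 73.1 in WT mice housed apart, without overlap. That of enteroendocrine markers (6 of 6) was 944.1 to 1346 in Xiap-/- and 767.5 to 1079 in WT mice, and that of B and plasma cell markers (2 of 6) was 39.0 to 46.0 in Xiap-/- and 41.0 to 100.7 in WT mice, both overlapping. The part of other cell types in the Ang4 difference was not tested.

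Co-housing gave no passing difference for either gene. Ang4 averaged 9.09 in co-housed Xiap-/- mice, against 9.45 in Xiap-/- mice housed apart, a difference of -0.36 ± 0.15 (95% interval -0.67 to -0.05, limma adjusted p = 0.378). In WT mice the difference was -0.02 ± 0.14 (-0.30 to 0.26, adjusted p = 0.976), and 0.11 without co-housed WT replicate 5. The genotype difference of Ang4 in co-housed mice minus that in mice housed apart was -0.34 ± 0.20 (-0.76 to 0.08, adjusted p = 0.778), so a dependence on housing was not shown. Lyz1 differed by -0.19 ± 0.13 between co-housed and housed-apart Xiap-/- mice (adjusted p = 0.615) and by -0.05 ± 0.12 in WT mice (adjusted p = 0.903). The genotype comparison housed apart and the co-housing comparison of Xiap-/- mice share the same 4 Xiap-/- mice, so their Ang4 values do not support each other.

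Itln1, on chromosome 1 (171518122 to 171535294, minus strand, 8 exons), had group means that differed by less than any of their SDs. They were 12.41 ± 0.23 in co-housed Xiap-/-, 12.39 ± 0.24 in co-housed WT, 12.39 ± 0.16 in Xiap-/- housed apart and 12.40 ± 0.21 in WT housed apart (log2, SD). Single mice ranged from 12.10 to 12.72 in co-housed Xiap-/-, 12.00 to 12.60 in co-housed WT, 12.22 to 12.59 in Xiap-/- housed apart and 12.11 to 12.57 in WT housed apart, with full overlap. The genotype difference was -0.01 ± 0.13 in mice housed apart (95% interval -0.28 to 0.26, limma adjusted p = 0.980) and 0.02 ± 0.13 in co-housed mice (-0.24 to 0.28, adjusted p = 0.963). Averaged over both housings the interval for Itln1 ran from -0.18 to 0.19, or 0.881-fold to 1.14-fold, and differences within it were not detectable here.

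Mmp7, the matrilysin that activates alpha-defensin precursors, lies on chromosome 9 (7692090 to 7699585, plus strand, 6 exons). It overlaps AV064505 on the opposite strand, and whether counting used the strand is not given in the sources used here. Its spread between mice of a group was wide, with a pooled SD of 0.32 that 98.7% of tested genes lay below. That share was 96.6% for Ang4, 89.7% for Itln1, 86.4% for Lyz1 and 59.4% for Habp2. The SD of Mmp7 was 0.45 in WT mice housed apart and 0.20 to 0.28 in the other groups. WT mice housed apart had levels of 8.27, 8.12, 9.03, 8.88, 8.32 and 7.87, so that the highest and the lowest Mmp7 value of all mice were both in that group. Xiap-/- mice housed apart had 8.52, 8.57, 8.13 and 8.42, inside that range. Co-housed Xiap-/- mice ranged from 8.09 to 8.65, and co-housed WT mice from 8.20 to 8.82. The genotype difference was -0.00 ± 0.19 in mice housed apart (95% interval -0.39 to 0.38, limma adjusted p = 0.995) and -0.09 ± 0.18 in co-housed mice (-0.47 to 0.29, adjusted p = 0.868). These intervals are the widest of the 5 members, and a change of up to about 1.30-fold in either direction lies within the one for mice housed apart.

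Habp2, on chromosome 19 (56287137 to 56320822, plus strand, up to 14 exons), overlaps the muscle gene Nrap on the opposite strand. Its mean over the 20 mice was 4.22, where compression by the transformation, if any, could be greater than for the other members. The values ranged from 4.08 to 4.52 in co-housed Xiap-/-, 4.17 to 4.42 in co-housed WT, 3.94 to 4.39 in Xiap-/- housed apart and 4.09 to 4.42 in WT housed apart, all overlapping. The genotype difference was -0.01 ± 0.10 housed apart (limma adjusted p = 0.975) and -0.11 ± 0.10 co-housed (95% interval -0.31 to 0.09, adjusted p = 0.677). Habp2 differed by 0.11 ± 0.09 between co-housed and housed-apart WT mice (adjusted p = 0.697) and by 0.01 ± 0.10 in Xiap-/- mice (adjusted p = 0.990).

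**Figure D2:**
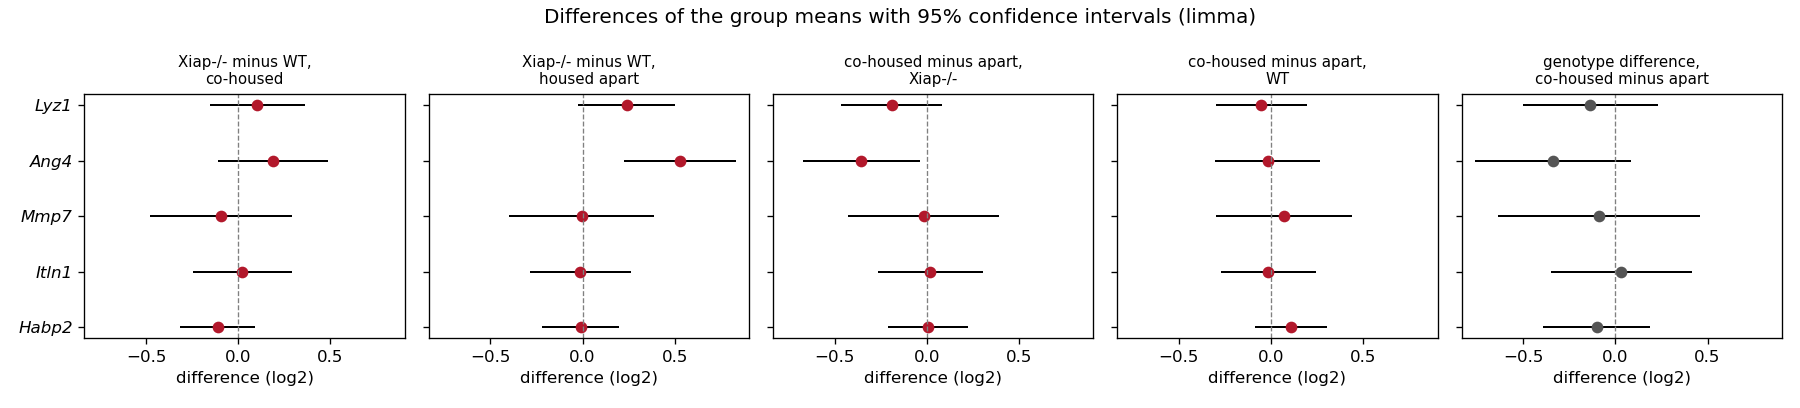
Differences between group means on the log2 scale (points) with 95% confidence intervals (lines) for the 5 genes in the 4 pairwise comparisons and, in grey, the genotype difference co-housed minus housed apart. The intervals of Ang4 exclude 0 for Xiap-/- against WT housed apart (0.23 to 0.82) and for co-housed against housed-apart Xiap-/- mice (-0.67 to -0.05), before adjustment over all genes.

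In none of the pairwise comparisons did a member separate the groups without overlap (0 of 5 in each). Of all tested genes, 1.87% did so between the genotypes housed apart, 3.09% between them co-housed, 5.63% for co-housing of Xiap-/- mice and 0.525% for co-housing of WT mice. Read against all genes, 0 of 5 members passed for genotype housed apart, where 43 of 9521 genes did (0.452%), and 1 of 5, Ang4, had an unadjusted limma p under 0.05, as did 15.8% of all genes. For genotype co-housed, 0 of 5 passed against 0.0315% of genes, and 0 of 5 had an unadjusted p under 0.05 against 12% of genes. For co-housing, 0 of 5 passed in Xiap-/- mice (0.147% of genes) and in WT mice (0% of genes). At an unadjusted p under 0.05 the count was 1 of 5 in Xiap-/- mice, again Ang4 (11.3% of genes), and 0 of 5 in WT mice (10.2%). For the interaction, 0 of 5 passed (0.0105% of genes) and 0 of 5 had an unadjusted p under 0.05 (7.05%). For genotype averaged over housings, 0 of 5 passed (2.06% of genes) and 1 had an unadjusted p under 0.05 (20.5%). For co-housing averaged over genotypes, 0 of 5 passed (0.179%) and 0 had an unadjusted p under 0.05 (14.4%). The median difference of the members was -0.00 for genotype housed apart and 0.02 co-housed, beside -0.00 and 0.00 for all genes. In bulk RNA, a difference in the number of Paneth cells and one in transcript per Paneth cell cannot be told apart.

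Over the 20 mice the members varied together to different degrees. The strongest of the 10 pairs was Lyz1 with Ang4, at r = 0.896 and rho = 0.832 (permutation p = 1e-05 and 2e-05, adjusted p = 1e-04 and 2e-04 over the 10 pairs). The first of these p-values is the smallest that 100000 resamples can give. Without the 2 mice farthest from the median of Lyz1, r was 0.866, and on deviations from the 4 group means it was 0.878. For each pair these 2 mice were chosen by the gene that comes first in the order Lyz1, Ang4, Mmp7, Itln1, Habp2. The mice left out can thus differ between pairs. Lyz1 with Itln1 had r = 0.778 and rho = 0.617 (permutation adjusted p = 3e-04 and 0.00906), with r = 0.610 without the 2 farthest mice and 0.899 within groups. Ang4 with Itln1 was looser, at r = 0.542 and rho = 0.429 (permutation adjusted p = 0.0265 and 0.0746), r = 0.501 without the 2 farthest mice and r = 0.727 within groups.

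Mmp7 had its highest r over the 20 mice with Itln1, but within groups its r with Ang4 was slightly higher, and no difference between correlations was tested. Mmp7 with Itln1 had r = 0.598 and rho = 0.678 (permutation adjusted p = 0.0136 and 0.0044), r = 0.825 without the 2 farthest mice and 0.608 within groups. Mmp7 with Lyz1 had r = 0.422 and rho = 0.483 (permutation adjusted p = 0.0707 and 0.0474), r = 0.297 without the 2 farthest and 0.529 within groups. Mmp7 with Ang4 had r = 0.443 and rho = 0.558 (permutation adjusted p = 0.0634 and 0.0189), r = 0.441 without the 2 farthest and 0.645 within groups. Habp2 had its highest correlation with Itln1, at r = 0.662 and rho = 0.722 (permutation adjusted p = 0.0048 and 0.0023), r = 0.700 without the 2 farthest and 0.710 within groups. Habp2 with Mmp7 had r = 0.526 and rho = 0.623 (permutation adjusted p = 0.0288 and 0.00906), r = 0.703 without the 2 farthest and 0.518 within groups. Habp2 with Lyz1 (r = 0.456, rho = 0.420) and with Ang4 (r = 0.384, rho = 0.281) did not pass (permutation adjusted p for r = 0.062 and 0.0953, for rho = 0.0746 and 0.229), with r = 0.462 and 0.330 without the 2 farthest mice and 0.676 and 0.693 within groups. All pairs share the libraries, and with them depth and the share of Paneth cell RNA in each.

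The alpha-defensin genes differed in which member they followed most closely, though no difference between correlations was tested. Of 22 alpha-defensin genes listed, 11 were tested, and the list does not hold every tested gene of the family (Defa29 and Defa35, described with the most similar genes, are not on it). Lyz1 had r above 0.5 with 10 of these 11 (median r 0.822), Ang4 with 10 (median 0.827), Itln1 with 11 (0.657), Mmp7 with 7 (0.532) and Habp2 with 1 (0.376). Among all other tested genes, 1.17% had such an r with Lyz1, 1.54% with Ang4, 1.03% with Itln1, 1.91% with Mmp7 and 5.29% with Habp2. Defa24 and Defa30, a pair of alpha-defensin genes, had r = 0.901 and 0.915 with Itln1, 0.754 and 0.764 with Lyz1 and 0.565 and 0.631 with Ang4. Defa17 and Defa3 had r = 0.869 and 0.836 with Lyz1, 0.827 and 0.849 with Ang4, and 0.711 and 0.647 with Itln1. Alpha-defensin genes resemble each other closely, so reads may be divided between their rows.

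**Figure D3:**
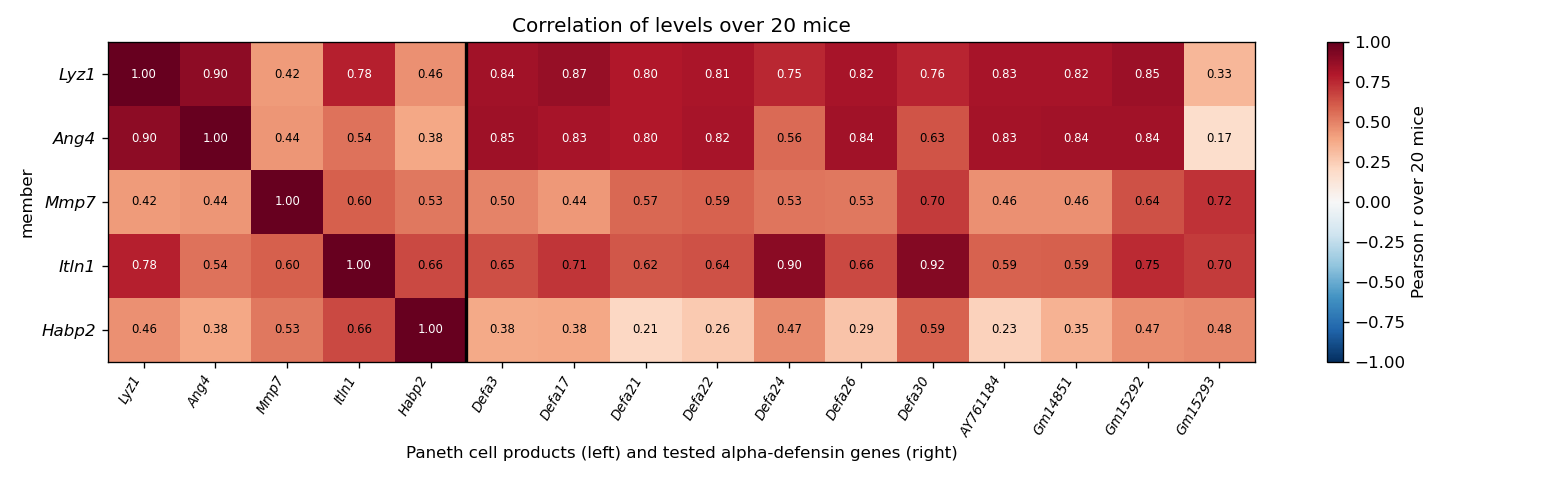
Pearson r over 20 mice between the 5 genes (rows) and each other (left of the line) or the 11 listed and tested alpha-defensin genes (right). Lyz1 and Ang4 have an r of 0.90 with each other, and Itln1 is darkest with Defa24 (0.90) and Defa30 (0.92).

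The genes most like each member were mostly Paneth cell genes. For Lyz1 they were the defensin genes Defa29 (r = 0.897 over the 20 libraries, 0.867 within groups), Defa17 (0.869, 0.841) and Gm15292 (0.853, 0.834). For Ang4 they were Defa29 (0.895, 0.888), the defensin pseudogene Defa-ps4 (0.866, 0.769) and Defa3 (0.849, 0.809). Those of Itln1 were Defa30 (0.915, 0.922), Defa24 (0.901, 0.914) and Defa35 (0.763, 0.784). Mmp7 was most like Mptx2, a pentraxin gene of the crypt base (0.865, 0.919), followed by Defa35 (0.782, 0.844) and Smim6 (0.760, 0.813). Habp2 was most like Fmr1 (0.768, 0.744), Bsn (0.767, 0.759) and Pla2g2a (0.757, 0.764), the gene of a secreted phospholipase of Paneth cells.

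Within a library, Lyz1 and Ang4 were higher relative to Itln1 in Xiap-/- than in WT mice housed apart. This view was chosen after the values were seen and carries no test. The log2 level of Lyz1 minus that of Itln1 lay between -0.23 and -0.03 in the 4 Xiap-/- mice and between -0.57 and -0.28 in the 6 WT mice, without overlap. Ang4 minus Itln1 lay between -3.08 and -2.60 in Xiap-/- and between -3.85 and -3.28 in WT mice, also without overlap. Of 9520 tested genes, 19 (0.2%) were higher relative to Itln1 without overlap in this way. Besides Lyz1 and Ang4 they held the defensin genes Defa3, Defa17, AY761184 and Defa-ps4 and the fat-digestion genes Clps and Pnliprp2. The other 11 were Aadac, Aldh1a1, Aqp8, Bche, Ces1d, Ces1g, Gm3776, Hdac5, Sco2, Tstd1 and Tymp, which are not genes of the Paneth cell lists. Mmp7 and Habp2 were not among the 19. Mmp7 minus Itln1 averaged -3.98 ± 0.11 in Xiap-/- and -3.99 ± 0.41 in WT mice housed apart. Relative to Mmp7, Ang4 overlapped between these genotypes (0.84 to 1.25 in Xiap-/- and -0.13 to 0.86 in WT mice). Relative to Lyz1, Ang4 was barely separated (-2.9326 to -2.57 in Xiap-/- and -3.38 to -2.9353 in WT mice). The share of all genes separated relative to Lyz1 was not computed. Subtracting Itln1 removes spread that a gene shares with it, so the share over all genes is not an even comparison.

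In co-housed mice the ratios of Lyz1 and Ang4 to Itln1 overlapped between the genotypes. Lyz1 minus Itln1 ranged from -0.48 to -0.23 in Xiap-/- and from -0.50 to -0.33 in WT mice, and Ang4 minus Itln1 from -3.44 to -3.14 in Xiap-/- and from -3.62 to -3.34 in WT mice. Of the 9520 genes, 2 (0.021%) were higher relative to Itln1 without overlap there. A ratio shows that a pair of transcripts differed unequally and does not show that Itln1 stayed the same.

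**Figure D4:**
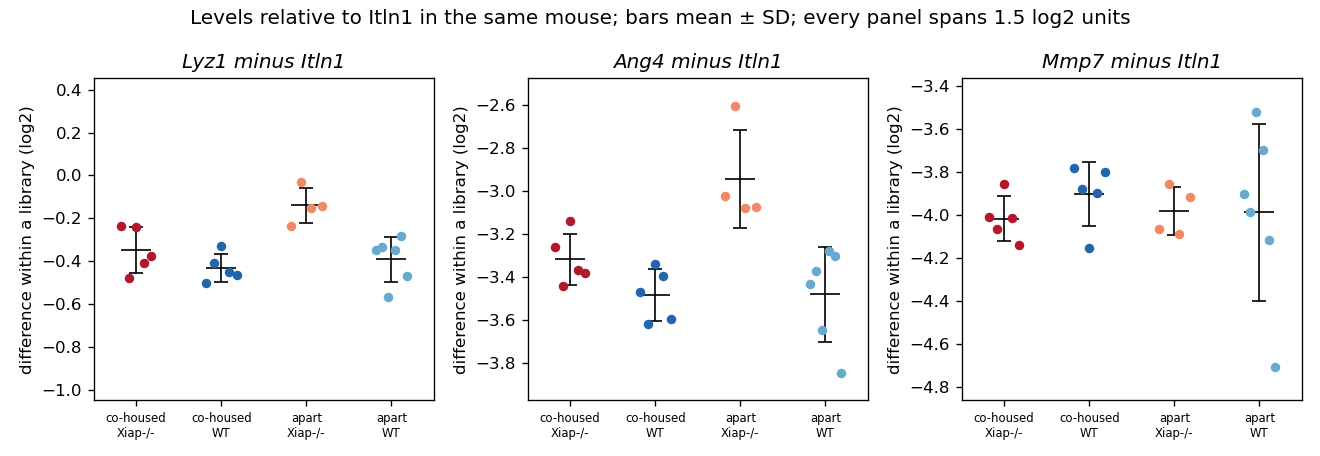
Log2 level of Lyz1, Ang4 and Mmp7 minus that of Itln1 in the same mouse (points), by group, with mean and SD; every panel spans 1.5 log2 units. In mice housed apart the Xiap-/- values of Lyz1 (-0.23 to -0.03) and Ang4 (-3.08 to -2.60) lie above all WT values, and those of Mmp7 overlap.

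Relatives of Ang4 in the ribonuclease A family had differences of the same sign as Ang4 in mice housed apart. Of 12 family and inhibitor genes listed, 4 were tested, and 1 passed: the pancreatic-type ribonuclease Rnase1 rose by 0.52 ± 0.11 (SE, limma adjusted p = 0.0263), to 6.11 ± 0.12 in Xiap-/- against 5.59 ± 0.29 in WT mice (SD, n = 4 and 6). Of all genes, 0.294% rose in that comparison. With the depth proxy as a covariate 3 of all genes passed there, against 43 without it. Whether Rnase1 was among the 3 is not given here. Ang, the founding angiogenin, differed by 0.31 ± 0.10 (adjusted p = 0.144), Rnase4 by 0.29 ± 0.11 (adjusted p = 0.192) and the ribonuclease inhibitor Rnh1 by 0.22 ± 0.12 (adjusted p = 0.390). The median difference of the 4 was 0.30, beside 0.00 for all genes. In co-housed mice 0 of the 4 passed by limma between the genotypes (0.0315% of all genes), and 0 had an unadjusted p under 0.05 (12% of all genes), with a median of 0.11. Of 6 pancreatic acinar markers 4 had a row and only Cela1 stood above the minimum. The summed linear level of those with a row was 32.2 to 45.8 in Xiap-/- and 26.1 to 33.1 in WT mice housed apart. The part of acinar RNA in the Rnase1 difference was not tested. The r of Ang4 with Rnase1 over the 20 mice was 0.587, and 0.229 within groups.

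Other genes listed as Paneth cell products moved in both directions. In bulk crypt RNA the cells that made these transcripts cannot be told apart. Of 19 further products listed, 16 were tested, and 1 rose in Xiap-/- mice housed apart, the secreted lectin Reg4 (8.47 ± 0.18 in Xiap-/- against 7.78 ± 0.36 in WT mice, difference 0.69 ± 0.14, limma adjusted p = 0.0192, where 0.294% of all genes rose), with a median of -0.05 over the list. Averaged over housings, Reg4 (0.46 ± 0.10, adjusted p = 0.0194) and the lipase-related Pnliprp2 (0.45 ± 0.12, adjusted p = 0.0497) rose, and the antimicrobial lectins Reg3b (-0.96 ± 0.19, adjusted p = 0.0195) and Reg3g (-1.02 ± 0.22, adjusted p = 0.0297) fell, beside 1.11% of genes that rose and 0.945% that fell. Averaged over housings with the depth proxy as a covariate, 6 of all genes passed, against 196 without it. Which of the genes named above still passed with that covariate is not given here. Mptx2, the gene most like Mmp7, differed by -0.28 ± 0.26 housed apart (adjusted p = 0.642). Of the 11 listed and tested alpha-defensins none passed by limma in mice housed apart, with 5 higher and 0 lower at an unadjusted p under 0.05, against 7.82% and 7.99% of all genes. Their median difference was 0.31, while that of Defa24 was 0.02 ± 0.14 and that of Defa30 0.05 ± 0.14.

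Genes that govern Paneth cell fate and granule release gave few calls. Of 18 tested fate and maturation genes, 0 passed in mice housed apart, with 0 higher and 4 lower at an unadjusted limma p under 0.05, against 7.82% and 7.99% of all genes. Averaged over housings 1 fell, the Wnt effector Tcf7l2 (6.98 in Xiap-/- against 7.45 in WT mice, -0.47 ± 0.10, adjusted p = 0.0191), as did 0.945% of all genes. Whether Tcf7l2 passed with the depth proxy as a covariate is not given here. Of 15 tested genes of granule packaging and release, 0 passed by limma for genotype in either housing, with 1 lower housed apart (7.99% of all genes were lower) and 2 co-housed (12% in either direction) at an unadjusted p under 0.05. The secretory chaperones with the highest means, Agr2 and Hspa5, differed by 0.21 ± 0.12 and -0.06 ± 0.10 in mice housed apart. Of the relatives of Mmp7, only Mmp14 (-0.29 ± 0.11, adjusted p = 0.181) and Mmp15 (0.04 ± 0.12, adjusted p = 0.898) were tested, and Timp1, Timp2 and Timp3 lay below the minimum. Of 23 proteases, substrates and inhibitors related to Habp2, 8 were tested and 0 passed by limma in any comparison, with 0 higher and 1 lower at an unadjusted p under 0.05 between the genotypes housed apart (7.82% and 7.99% of all genes). The highest of them by mean, the inhibitor Spint2 and the serpin Serpinb6a, did not pass either. Of 6 tested lysozyme and lectin relatives, 0 passed by limma and 1, Lyz2, was higher at an unadjusted p under 0.05 in Xiap-/- mice housed apart (7.82% of all genes), with Zg16 at -0.03 ± 0.14 and Lgals4 at -0.10 ± 0.11 housed apart.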

How the data were processed

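The authors deposited 1 table of normalized values on a log2 scale for 23020 genes in 20 libraries, between -3.88 and 16.30. The submitters' processing notes name DESeq2 1.18.1 and the build GRCm38.p6. How the log2 values were derived, and the aligner and counter, are not given in the sources used here. Per the labels' protocols, 3' ends were captured with unique molecular identifiers. The values were used as deposited in R 4.3.3 with limma 3.58.1. All 20 libraries entered 1 model of the 4 group means with trended, robust variances (16 residual degrees of freedom). Tests were two-sided, with Benjamini-Hochberg adjustment over 9521 genes with a mean of at least 3.32 (log2 of 10), and a gene passed at an adjusted p under 0.05. Errors of differences are standard errors and errors of means are standard deviations over mice. The depth proxy counts rare genes (mean below -3) more than 0.015 above their median over libraries. Correlations used 100000 permutations (numpy 2.4.6). Of each gene list, members that passed are named (at most 4 by p), otherwise those with the highest mean, and for each member the 3 genes with the highest r. Other genes were chosen after their values were seen. The members and lists were chosen with earlier results of these data known. The model was tested on simulated data. Alternatives were other filters, scalings, variance settings and weights, the compared groups alone, a depth covariate, a replicate block and leaving out mice. Replicate numbers are shared between groups without the labels saying that they pair mice. Positions and overlaps are from GENCODE M21 (GRCm38), and start regions from RefSeq.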

Additional observations from a re-analysis of the deposited data

Results flagged for a closer look

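In 4 of 20 sets of values (5 genes in 4 groups), the most extreme mouse stood apart from its group by more than Dixon's 95% critical value. Chance flags about 1 in 20 such sets, and the sets share libraries. In co-housed Xiap-/- mice, replicate 4 was the lowest for Lyz1 (11.69, others 12.09 to 12.24) and for Ang4 (8.73, others 9.12 to 9.28). In co-housed WT mice, replicate 5 was the lowest for Lyz1 (11.54, others 12.00 to 12.12). Both of these mice were also low for Itln1, at 12.10 and 12.00. In co-housed Xiap-/- mice, replicate 2 was the highest for Habp2 (4.52, others 4.08 to 4.15), and it also had the highest Itln1 value of all mice, 12.72. Its depth proxy, 4.69%, was the lowest of its group.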

How the results depend on the processing

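Alternative settings gave 1083 values of member differences and of correlations between members. Of these, 93 changed sign, all of differences that did not pass, and 8 differences newly passed, all of Ang4. Ang4 kept its direction for genotype housed apart, co-housed and averaged and for its interaction in every alternative, and Lyz1 did so except in co-housed mice without WT replicate 5. The genotype difference of Ang4 averaged over housings passed with array weights (0.40, limma adjusted p = 0.0274) and without Xiap-/- replicate 3 housed apart (adjusted p = 0.0486), co-housed Xiap-/- replicate 4 (0.0443), WT replicate 4 housed apart (0.0466) or WT replicate 5 housed apart (0.0235). With the depth proxy as covariate it was 0.25 (adjusted p = 0.318), and the range of adjusted p was 0.0235 to 0.318. In the settings where Ang4 passed, in the order given, 791, 98, 100, 124 and 956 of all tested genes passed, against 196 in the main setting. Members past the threshold were thus 1 of 5 with array weights for genotype housed apart and 1 averaged, 1 housed apart with both low co-housed mice left out (co-housed Xiap-/- replicate 4 and WT replicate 5, an alternative chosen after seeing the data), and 0 to 1 for both without single mice. Habp2 has no value with a mean of at least log2 of 40.

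Counts over all genes moved more. Without a filter they were 10 for genotype co-housed, 5 for co-housing of WT and 27 for co-housing averaged. With the filter at 40 they were 0 for genotype co-housed, 9 for co-housing of Xiap-/- mice and 0 for the interaction. Without trend and robust variances they were 65 for genotype housed apart and 23 for co-housing of Xiap-/-. With array weights they were 385 for genotype housed apart, 159 co-housed and 791 averaged, 224 for co-housing of Xiap-/-, 5 of WT and 135 averaged, and 4 for the interaction. With the compared groups alone they were 12 for genotype housed apart, 142 co-housed and 169 for co-housing of Xiap-/-. With the depth covariate they were 3 for genotype housed apart and 6 averaged, 1 for co-housing of Xiap-/- and 4 averaged. With both low mice left out they were 1 for genotype co-housed and 71 averaged, 3 for co-housing of Xiap-/- and 9 averaged. Leaving out 1 mouse gave 9 to 697 for genotype housed apart, 1 to 12 co-housed and 36 to 956 averaged, 2 to 64 for co-housing of Xiap-/-, 0 to 66 of WT and 6 to 226 averaged. The causes were not tested.

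Whether the replicate numbers pair mice cannot be told from the labels or from these values. Over 27 same-numbered pairs the correlation of deviations ran from -0.416 to 0.363 (median 0.014), and 10 were over 0.1. With a replicate block the counts over all genes were 350 for genotype housed apart and 582 averaged, 189 for co-housing of Xiap-/- and 98 averaged, and 10 for the interaction. No member passed with the block, and Ang4 was 0.46 housed apart (limma adjusted p = 0.136). The block turned Itln1 (0.0039 for genotype housed apart, 0.019 for co-housing of WT) and Mmp7 (0.025 for co-housing of Xiap-/-, -0.039 of WT, -0.0067 averaged, 0.064 for the interaction).

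Other turns of sign were as follows. Median centring gave -0.0071 for Itln1 with co-housing averaged. Quantile normalization gave Itln1 0.13 for genotype housed apart, 0.047 for co-housing of WT and -0.044 for the interaction, Mmp7 0.029 and Habp2 -0.0050 for co-housing of Xiap-/-, and Ang4 0.047 for co-housing of WT. Array weights gave 0.090 for Mmp7, 0.047 for Itln1 and 0.048 for Habp2 for genotype housed apart. They gave Itln1 -0.025 for genotype co-housed, -0.026 for co-housing of Xiap-/-, 0.046 of WT and -0.072 for the interaction, Habp2 -0.051 for co-housing of Xiap-/- and Ang4 0.040 for co-housing of WT. The depth covariate gave Mmp7 0.067 for co-housing of Xiap-/- and 0.0070 for the interaction, and Itln1 -0.0023 for co-housing averaged. Leaving out both low mice gave Mmp7 0.059 for co-housing of Xiap-/-, and for co-housing of WT 0.051 for Lyz1, 0.11 for Ang4 and 0.083 for Itln1, and Itln1 -0.0050 for genotype averaged.

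Leaving out 1 mouse gave these ranges for differences that changed sign. For genotype housed apart they were -0.11 to 0.12 for Mmp7, -0.078 to 0.047 for Itln1 and -0.076 to 0.075 for Habp2. For genotype co-housed they were -0.0012 to 0.20 for Lyz1 and -0.076 to 0.099 for Itln1, and averaged -0.10 to 0.013 for Mmp7 and -0.044 to 0.044 for Itln1. For co-housing of Xiap-/- they were -0.11 to 0.059 for Mmp7, -0.059 to 0.095 for Itln1 and -0.078 to 0.073 for Habp2. For co-housing of WT they were -0.10 to 0.051 for Lyz1, -0.074 to 0.11 for Ang4, -0.039 to 0.19 for Mmp7 and -0.073 to 0.083 for Itln1. For co-housing averaged they were -0.028 to 0.088 for Mmp7 and -0.037 to 0.051 for Itln1, and for the interaction -0.21 to 0.021 for Mmp7 and -0.064 to 0.11 for Itln1. The unknown depth and the wide spread of Mmp7 and Ang4 limit what differences could be found.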
